A study of Mus musculus with 8 samples.

Results

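Integrins are cell surface receptors built from 1 alpha and 1 beta subunit, and laminins are basement membrane proteins built from 1 alpha, 1 beta and 1 gamma chain. The genes of all these subunits were taken from the deposited array data by their RefSeq accession and symbol (Itga, Itgb, Lama, Lamb or Lamc followed by a number or letter), which gave 37 genes: 18 integrin alpha subunits, 8 integrin beta subunits and 11 laminin chains. All 37 were among the 22909 named genes of the array, and they were covered by 58 probes. The rule used names only. Where a gene had several probes, the brightest stood for it.

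In heart muscle, the alpha and beta chains of an integrin fix what it binds: some pairs bind laminin, others collagen, others proteins that carry the short motif Arg-Gly-Asp (RGD) such as fibronectin and vitronectin. Inside the cell the beta chain is tied to the actin skeleton through talin, vinculin and kindlin, and at the costamere this links the contractile apparatus to the basement membrane around each cardiomyocyte. Laminin with the alpha2 chain is the main laminin of the muscle basement membrane, and alpha7 with beta1 is its best known receptor in striated muscle.

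The study measured RNA of mouse ventricle on 8 single-colour Agilent arrays. It compared wild-type mice (WT) with mice homozygous for a deletion of lysine 210 in cardiac troponin T (genotype TNNT2ΔK210/ΔK210, here KI), a knock-in model of dilated cardiomyopathy. Each genotype was sampled at birth (0 day) and at 1 week, with 2 arrays a group, and the ventricles of 3 mice were pooled. The mutation lies in a sarcomere gene and is present in every cell of the KI mice. Whether both arrays of a group hold different pools is not stated, so each standard error and p reflects array-to-array spread that may be purely technical. The slide held the birth samples in its first row and the 1-week samples in its second, and an effect of row cannot be told apart from one of age. Likewise, the WT and KI samples at birth sat in different columns, and column and genotype cannot be told apart there.

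The deposited value table and the deposited scanner files named 3 of the 4 arrays at 1 week differently. These arrays are called A, B, C and D. By the value table, A and D were WT and B and C were KI; by the scanner files, A and B were WT and C and D were KI. Genotypes at 1 week follow the value table unless the scanner-file samples are named. Comparing all 4 arrays of each age needs neither record.

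Levels are log2 intensity relative to the array's 75th percentile probe, so 0 is that percentile and each step of 1 is a doubling of signal. A level cannot be set against that of another gene, because probes differ in brightness. That percentile lay at an intensity of 342.4 to 523.0, and 58.9% to 63.1% of probes were well above background. The first principal component (60.8% of variance) parted the ages and the second (11.7%) set array D apart. Summed cardiomyocyte markers reached 11.12 at birth and were at 11.01 to 11.19 at 1 week, with all 7 markers above background at both ages, whereas summed atrial markers were at 4.23 on array A and 7.24 to 8.19 on the other 7. Tnnt2 itself was at 7.77 to 8.33, with a KI minus WT difference of -0.08 ± 0.19 (SE, 2 arrays a group) at birth and 0.15 ± 0.19 at 1 week; the array reads abundance and does not show the deletion.

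Of the 37 subunits, 28 were well above background on all 8 arrays. Itgad, Itgb8 and Lamc3 were above background on 0 arrays and Itgae on 1, and these 4 were not tested. Itgad and Itgae encode leukocyte alpha subunits, Itgb8 a partner of alphaV, and Lamc3 the gamma3 laminin chain. The 33 tested subunits had to be above background on every array of at least 1 group, so a gene measured at 1 age only, such as Itgb6 or Lama1, entered through the age at which it was bright. No subunit was saturated on any array.

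Between birth and 1 week, every subunit that passed within a genotype by limma (adjusted p under 0.05 over all genes tested) was higher at 1 week, while most subunits did not pass. In WT, 10 of 33 were higher and 0 lower, against 19.0% of all 15744 genes tested that passed in either direction, 10.0% higher and 8.96% lower. In KI, 7 of 33 were higher and 0 lower, against 10.6% of all genes, 5.86% higher and 4.75% lower. In both genotypes 6 of them passed: Itga4, Itga7, Itga9, Itga11, Itgb6 and Lama2. The median difference of the tested subunits was 0.37 in WT and 0.22 in KI (log2), beside -0.04 and -0.02 over all genes, and 9 and 10 subunits had differences below 0. The counts depended on single arrays. The WT count ran from 6 (without WT birth array 2) to 17 (without array A), and the KI count was 3 without array B, array C or KI birth array 2 and 4 without KI birth array 1.

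By the scanner-file samples, 8 subunits rose and 0 fell in WT, where 12.7% of all genes passed (6.98% higher, 5.67% lower). In KI 9 rose and 0 fell, where 15.3% of all genes passed (8.38% higher, 6.88% lower). The same 6 genes passed in both genotypes there too. All 8 of the WT calls and 7 of the KI calls were shared with the value-table samples; Itga6 and Itgb4 passed in KI by the scanner files only. Over all 4 arrays of each age, which uses no genotype label, 18 of 31 subunits passed, 14 higher and 4 lower, against 33.3% of all genes (16.2% higher, 17.1% lower). That comparison was added after the data were seen, and its count ran from 13 to 18 when single arrays were left out, lowest without KI birth array 2. Itgb6 among those higher and Lama1 among those lower were each below background on all arrays of 1 age.

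**Figure D1:**
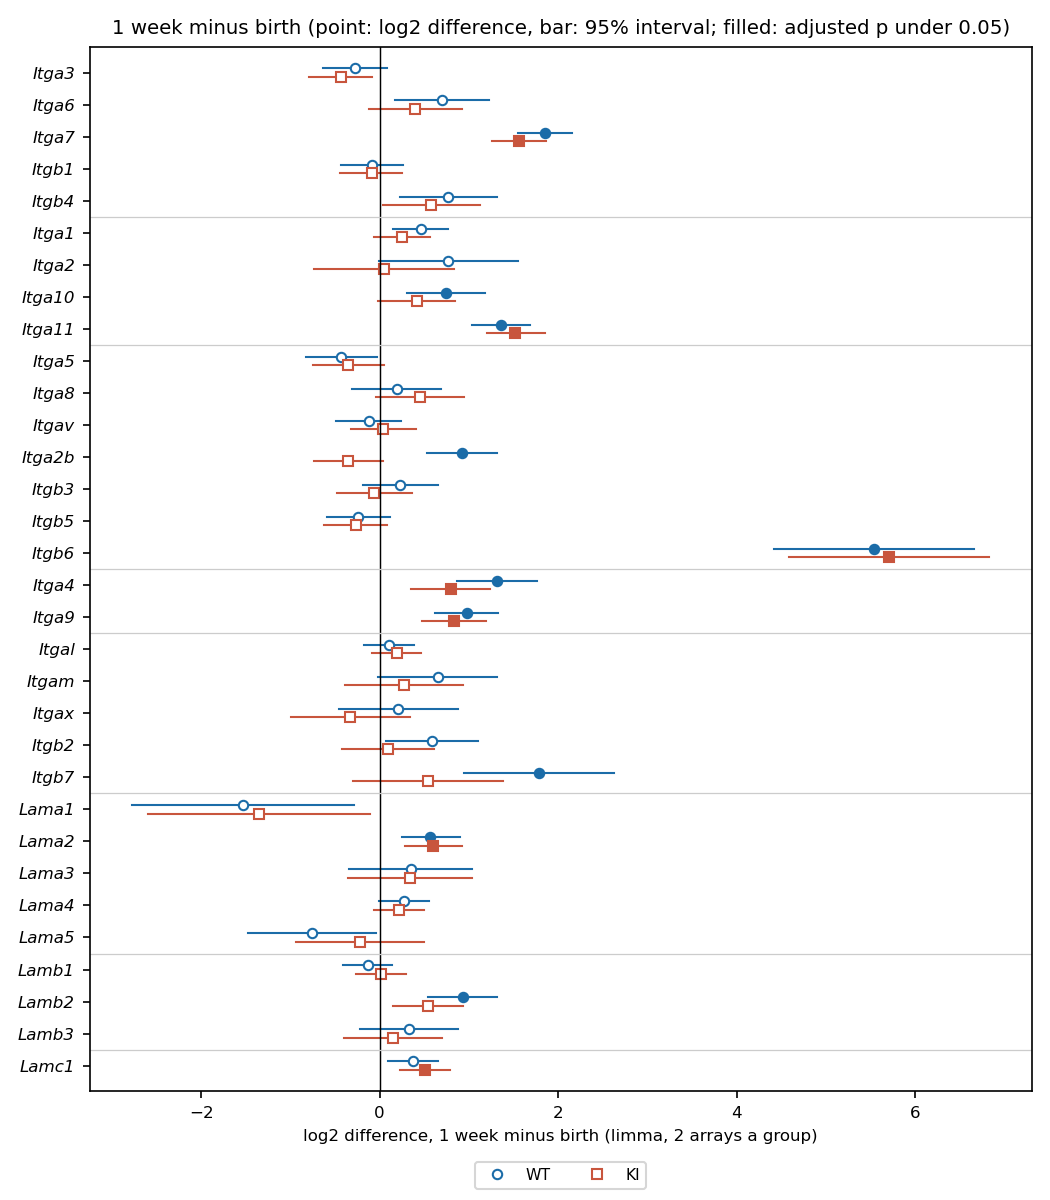
Difference between 1 week and birth (log2, horizontal axis) for 32 of the 33 tested subunits in WT (circles) and KI (squares), with bars for the 95% interval and filled symbols for an adjusted p under 0.05; grey lines part laminin receptors, collagen receptors, RGD receptors, alpha4 and alpha9, leukocyte integrins, and laminin alpha, beta and gamma chains. All filled symbols lie right of 0. The fitted values of Itgb6, 5.54 and 5.71, are not measured folds, since it was below background at birth and was at least 12.9-fold (WT) and 19.1-fold (KI) higher at 1 week.

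Among the laminin receptor subunits, Itga7 rose. Itga7 was at 3.04 and 3.0 on the WT arrays at birth, at 3.21 and 3.37 on the KI arrays at birth, at 4.94 (A) and 4.81 (D) in WT at 1 week, and at 4.91 (B) and 4.80 (C) in KI at 1 week. The birth and 1-week arrays did not overlap, and the arrays within each age lay close together. The difference was 1.85 ± 0.13 in WT (SE, 2 arrays a group; adjusted p = 0.000575) and 1.56 ± 0.13 in KI (adjusted p = 0.00125), and the change with age did not differ detectably between genotypes (-0.29, 95% interval -0.71 to 0.13). A dimmer probe of Itga7 gave 1.68 over all arrays, beside 1.71 for the brightest one, and the call held under all 17 alternatives in each genotype.

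The other laminin receptor subunits moved less. Itgb1, the beta chain shared by most integrins of the heart, was at 5.73 to 5.91 at birth and 5.65 to 5.96 at 1 week, with a difference of -0.08 ± 0.15 in WT (95% interval -0.43 to 0.26) and -0.09 ± 0.15 in KI. Its ages overlapped, in contrast to its partner Itga7. Itga6 and Itgb4, which pair in hemidesmosomes, were higher on every 1-week array than on every birth array. Itga6 went from 4.45 to 4.65 at birth to 4.79 to 5.54 at 1 week, and Itgb4 from -1.25 to -0.86 to -0.66 to 0.16, with array D highest for both. Neither passed in WT (0.70 ± 0.22, adjusted p = 0.0685, and 0.77 ± 0.23, adjusted p = 0.0572) or KI, but over all 4 arrays of each age both rose (0.55 and 0.68; adjusted p = 0.0252 and 0.018). Itga6 lost that call without WT birth array 2 (adjusted p = 0.0639) or KI birth array 2 (0.0608). Itga3 fell in the same comparison (-0.36 ± 0.10, adjusted p = 0.0234), and did not pass without array A, array C or KI birth array 2 (0.052 to 0.0584) or with the mean over its probes (-0.23, adjusted p = 0.125).

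Each of the 3 collagen receptor subunits above background on all arrays rose over all 4 arrays of each age. Itga11, the alpha chain of the fibroblast receptor for fibrillar collagen, was at -2.47 and -2.5 on the WT arrays at birth, -2.19 and -1.98 on the KI arrays at birth, -1.21 (A) and -1.04 (D) in WT at 1 week and -0.49 (B) and -0.63 (C) in KI at 1 week. All 1-week arrays were above all birth arrays, and within each age both KI arrays were above both WT arrays by the value table. Itga11 rose by 1.36 ± 0.14 in WT (adjusted p = 0.00187) and by 1.52 ± 0.14 in KI (adjusted p = 0.00182), and kept both calls under all 17 alternatives.

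Itga10, another collagen-binding alpha chain, was at -0.99 and -1.30 in WT and -1.12 and -0.88 in KI at birth, and at -0.56 (A), -0.25 (D), -0.46 (B) and -0.70 (C) at 1 week. It passed in WT (0.74 ± 0.18, adjusted p = 0.0338) and not in KI (0.42 ± 0.18, adjusted p = 0.211). The WT call was the least stable of all: by the scanner-file samples adjusted p was 0.0797, leaving out any 1 array except A gave 0.0501 to 0.151, and the mean over both probes gave 0.26 with an adjusted p of 0.639. The dimmer Itga10 probe, above background on 4 arrays, went the other way (-0.20). Itga1 passed over all 4 arrays of each age (0.36 ± 0.11, adjusted p = 0.0343) but in neither genotype alone, and lost that call without 6 of the 8 arrays (all but B and C), with adjusted p from 0.0541 to 0.0922. Itga2 was above background on 3 arrays and did not pass.

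Markers of non-muscle cells moved over the same interval. Over all 4 arrays of each age, 5 of 6 fibroblast markers were higher and 1 lower, with a summed level of 7.22 to 7.51 at birth and 8.17 to 8.63 at 1 week. All 6 endothelial markers were higher, at 6.81 to 6.89 and 7.26 to 7.75, 4 of 5 Schwann cell and nerve markers were higher, and 4 of 7 smooth muscle and pericyte markers were higher, with 16.2% of all genes higher. Summed smooth muscle and pericyte markers were at 7.07 to 7.45 at birth and 7.03 to 7.48 at 1 week. Summed adipocyte markers were at 7.43 to 7.63 and 7.47 to 7.98, with 1 of 2 tested over all arrays higher. The sum hid wide shifts of single adipocyte markers. Within genotypes all 6 could be tested and were above 0, with a median of 2.5 in WT and 3.88 in KI. Of these, 1 passed in WT and 0 in KI. By the scanner-file samples 5 were above 0 and 1 below in WT. In whole ventricle, fewer cells of a type and less RNA per cell cannot be told apart. The part of these markers in the changes of the subunits was not tested.

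Itgb6, which pairs with alphaV into a receptor for fibronectin and for the latency peptide of TGF-beta, had the widest difference of all subunits. It was not well above background on any birth array (-6.38 and -7.10 in WT, -6.46 and -6.78 in KI) and well above it on all 4 arrays at 1 week, at -0.55 (A) and -1.85 (D) in WT and -0.51 (B) and -1.32 (C) in KI. The gap between the ages was several times the spread within either. Against the lowest signal that counted as above background, Itgb6 was at least 12.9-fold higher in WT and at least 19.1-fold higher in KI. Over all arrays it was at least 15.7-fold higher. No test was run on these bounds. The limma adjusted p, 0.00113 in WT, 0.00137 in KI and 1.06e-05 over all arrays, belongs to the fitted differences. The fitted log2 differences, which use birth signals below background, were 5.54 ± 0.47 and 5.71 ± 0.47, and the call held under all 16 alternatives in each genotype. Where the raw median signal was corrected by the normexp method, the fitted differences were smaller, 1.93 in WT and 2.08 in KI. The dimmer Itgb6 probe was above background on 0 birth arrays and 2 arrays at 1 week, with a difference of 2.61.

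Integrin beta6 is best known from epithelium. Of 6 epithelial markers, Epcam and Cdh1 were not above background on any array, 3 could be tested and 0 passed with age, and their summed level was 1.80 to 2.23 at birth and 1.55 to 2.32 at 1 week. Itgav, the alpha partner of beta6, was at 2.42 to 2.66 at birth and 2.33 to 2.71 at 1 week, with a difference of -0.12 ± 0.15 in WT and 0.04 ± 0.15 in KI.

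The remaining RGD receptor subunits differed less between the ages. Itgb5, another partner of alphaV, was at 3.94 to 4.24 at birth and 3.73 to 3.93 at 1 week, without overlap, yet did not pass over all arrays (-0.25 ± 0.09, adjusted p = 0.0682). Itga5, the fibronectin receptor subunit, was at 0.70 to 1.01 and then 0.22 to 0.58 and fell in that comparison (-0.39 ± 0.11, adjusted p = 0.0293), but not without WT birth array 2, KI birth array 1 or KI birth array 2 (adjusted p = 0.0579 to 0.0737) or after normexp correction (-0.23, adjusted p = 0.122). Itga8 and Itgb3 did not pass with age in either genotype.

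Itga2b, the alpha subunit of the platelet fibrinogen receptor, passed with age in WT and not in KI. It was at -4.57 and -4.90 on the WT arrays at birth, -3.86 and -3.92 on the KI arrays at birth, -3.86 (A) and -3.76 (D) in WT at 1 week and -4.09 (B) and -4.40 (C) in KI at 1 week. WT at birth was the low group, and all arrays of the other groups lay above it. That low level was close to the lowest signal that counted as above background. The WT rise of 0.92 ± 0.17 passed (adjusted p = 0.0118), whereas the KI difference was -0.35 ± 0.17 (adjusted p = 0.242). The difference between those changes was -1.27 ± 0.23 with an unadjusted p of 0.000977, the smallest of the subunits, and did not pass over all genes (adjusted p = 0.574). By the scanner-file samples it was -0.95 ± 0.32 (adjusted p = 0.777), and the WT rise of 0.76 did not pass (adjusted p = 0.0781). The WT call was also lost without array D (0.0514) or WT birth array 2 (0.0651), and after normexp correction (0.19, adjusted p = 0.407).

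Markers of platelets lay in the same order as Itga2b at birth. Their summed level was 2.22 to 2.24 in WT and 2.60 to 2.61 in KI at birth and 2.64 to 2.78 at 1 week; all 5 were above background at both ages, 5 of 5 were higher in KI at birth with a median of 0.47, and 0 passed between genotypes. This order was not particular to platelets. Summed neutrophil markers were at 3.49 and 3.73 in WT and 4.35 and 4.52 in KI at birth, with 5 of 6 higher. Summed atrial, epicardial and Schwann cell and nerve markers were also higher in KI at birth. Of the cardiomyocyte and endothelial markers 6 of 7 and 5 of 6 were lower, but by little, with medians of -0.03 and -0.08. Over all genes 7946 of 15744 were higher in KI at birth. The part of any of these markers in the Itga2b values was not tested.

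Both alpha4 and alpha9, related subunits that bind VCAM-1 and other ligands, rose. Itga4 was at -2.19 and -2.63 on the WT arrays at birth, -2.07 and -2.10 on the KI arrays at birth, -1.06 (A) and -1.13 (D) in WT at 1 week and -1.46 (B) and -1.11 (C) in KI at 1 week. Every 1-week array was above every birth array. The difference was 1.31 ± 0.19 in WT (adjusted p = 0.00569), kept under all 17 alternatives, and 0.80 ± 0.19 in KI (adjusted p = 0.0403), kept under 7 of 17. The KI call was lost without any 1 of the arrays A, B, C, D, KI birth 1 and KI birth 2, with adjusted p from 0.0507 to 0.207.

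Itga9 was at 1.39 and 1.21 on the WT arrays at birth, 1.59 and 1.33 on the KI arrays at birth, 2.36 (A) and 2.19 (D) in WT at 1 week and 2.36 (B) and 2.22 (C) in KI at 1 week. Again the ages did not overlap. It rose by 0.98 ± 0.15 in WT (adjusted p = 0.00752; all 17 alternatives) and by 0.83 ± 0.15 in KI (adjusted p = 0.0177), the latter not passing without array B (0.11), array C (0.0721) or KI birth array 2 (0.109). A dimmer Itga9 probe gave 0.62 over all arrays.

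Of the leukocyte integrins, Itgb7 alone passed with age. It encodes the beta chain of lymphocyte homing receptors and was at -4.95 and -3.99 on the WT arrays at birth, -4.08 and -3.45 on the KI arrays at birth, -2.71 (A) and -2.65 (D) in WT at 1 week and -2.97 (B) and -3.48 (C) in KI at 1 week. The KI ages overlapped and the WT ages did not. The WT difference was 1.79 ± 0.35 (adjusted p = 0.0165), lost without array D (0.0707) or WT birth array 1 (0.0678), and the KI difference was 0.54 ± 0.35 (adjusted p = 0.401); the difference between the changes was -1.25 ± 0.50 (adjusted p = 0.888). The beta2 family, made up of Itgb2 with Itgal, Itgam and Itgax as alpha chains, did not pass in either genotype. The brighter and dimmer probes of Itgam gave 0.46 and 0.07 over all arrays. They were alike in WT (0.65 and 0.57) and opposite in KI (0.27 and -0.43). For KI minus WT at birth they were also opposite, at -0.17 and 0.37. Summed lymphocyte markers were at 0.64 to 0.86 at birth and 0.96 to 1.26 at 1 week, with Cd3g, Cd8a and Rag1 not above background on any array, and summed macrophage markers were at 2.93 to 3.29 and 3.5 to 3.95. Summed neutrophil markers went the other way, from 3.49 to 4.52 at birth to 1.74 to 2.4 at 1 week. Over all arrays 3 of 5 tested neutrophil markers were lower and 1 higher, with 17.1% of all genes lower and 16.2% higher. The part of these leukocyte markers was not tested.

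**Figure D2:**
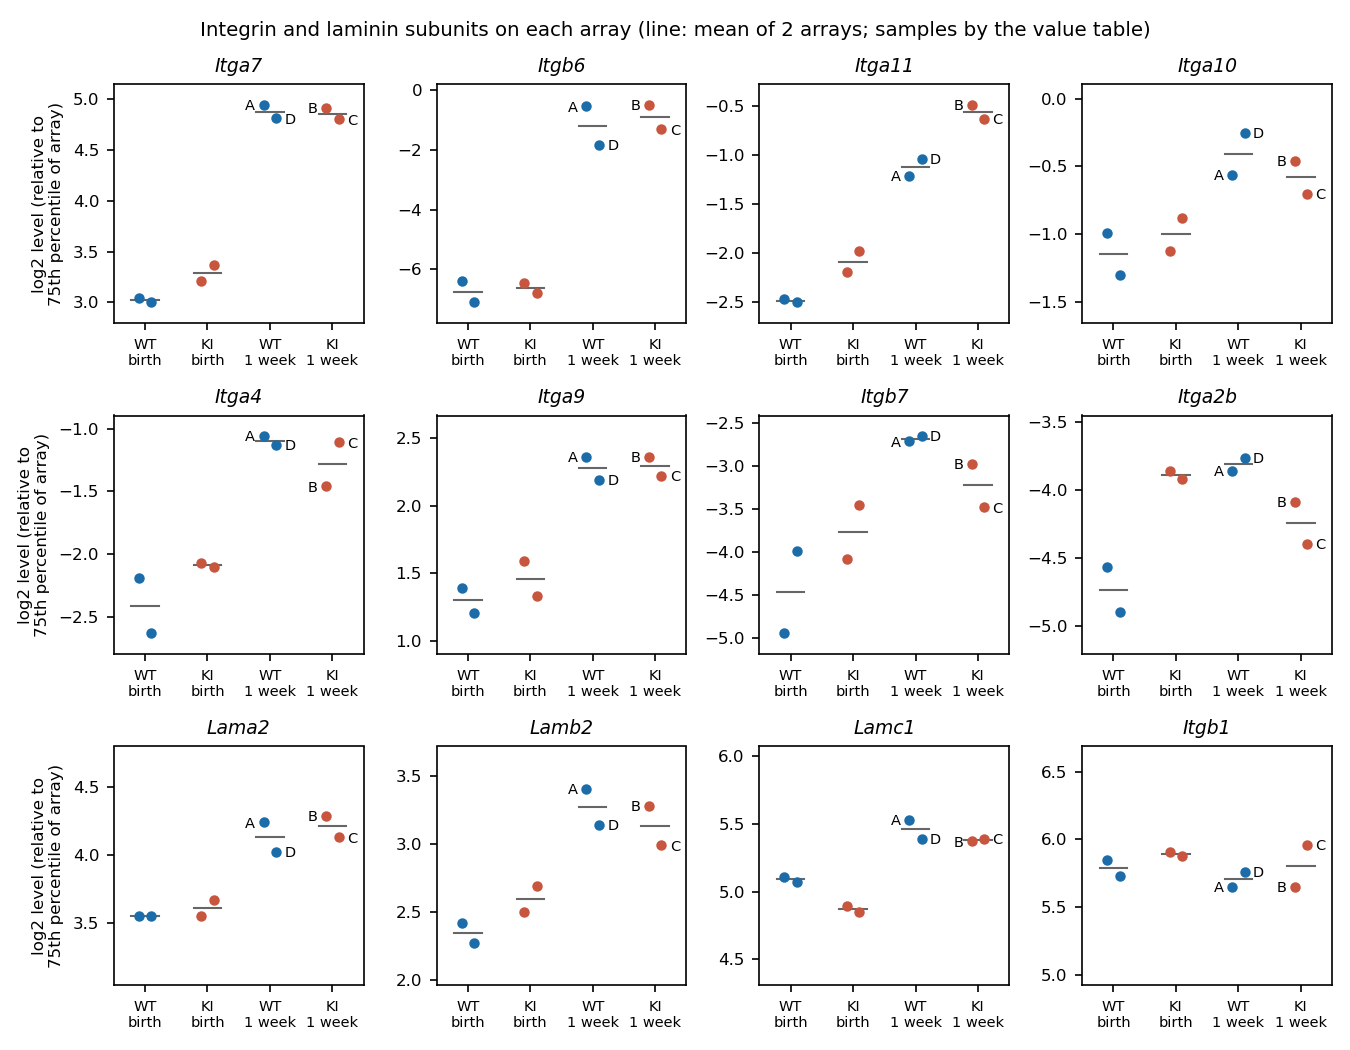
Levels (log2 relative to each array's 75th percentile, vertical axis) of the 11 subunits that passed with age in WT or KI, and of Itgb1 for contrast, on each array; blue is WT, red is KI, lines are means of 2 arrays, and 1-week arrays carry their letters. Itga7 sits at 3.0 to 3.37 at birth and 4.80 to 4.94 at 1 week, while Itgb1 overlaps between the ages.

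Among the laminin chains, Lama2 passed in both genotypes. Lama2, the alpha chain of the muscle basement membrane laminin, was at 3.55 and 3.55 on the WT arrays at birth, 3.55 and 3.67 on the KI arrays at birth, 4.24 (A) and 4.02 (D) in WT at 1 week and 4.29 (B) and 4.13 (C) in KI at 1 week. The birth arrays were nearly equal and all 1-week arrays lay above them. Lama2 rose by 0.57 ± 0.14 in WT (adjusted p = 0.0296) and 0.60 ± 0.14 in KI (adjusted p = 0.0359), and its dimmer probe gave 0.95 over all arrays. These calls were near the threshold: in WT adjusted p was 0.051 to 0.124 without array A or any 1 birth array, and in KI 0.0681 to 0.191 without array B, array C or any 1 birth array.

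Lamb2, a beta chain that can join alpha2 in laminins of muscle, was at 2.42 and 2.27 on the WT arrays at birth, 2.50 and 2.69 on the KI arrays at birth, 3.41 (A) and 3.14 (D) in WT at 1 week and 3.28 (B) and 2.99 (C) in KI at 1 week. Its ages did not overlap. It rose in WT (0.93 ± 0.16, adjusted p = 0.0112; 0.0648 without WT birth array 2), and was 0.54 ± 0.16 higher in KI without passing (adjusted p = 0.0906). Lamb1, another laminin beta chain, was at 5.54 to 5.70 at birth and 5.48 to 5.61 at 1 week, and its 3 probes gave -0.06, -0.01 and 0.00 over all arrays.

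Lamc1, the gamma chain of most laminins, was at 5.11 and 5.07 on the WT arrays at birth, 4.89 and 4.85 on the KI arrays at birth, 5.53 (A) and 5.39 (D) in WT at 1 week and 5.37 (B) and 5.39 (C) in KI at 1 week. By its brightest probe the lowest group was KI at birth. It rose in KI (0.51 ± 0.12, adjusted p = 0.0378), but adjusted p was 0.0727 to 0.184 without array B, array C or any 1 birth array; in WT the difference was 0.37 ± 0.12 (adjusted p = 0.0688). The dimmer Lamc1 probe, above background on all 8 arrays, did not share that order at birth, with KI minus WT at 0.19 beside -0.22. Its difference between the ages was 1.33 in WT and 0.49 in KI. Over all 4 arrays of each age Lama2, Lamb2 and Lamc1 all passed (0.59, 0.74 and 0.44, with adjusted p = 0.00122, 0.00213 and 0.0065). They kept that call without any 1 array.

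Lama1 passed as lower at 1 week over all 4 arrays of each age, a test it entered only through the birth arrays. Lama1, the alpha chain of embryonic laminin, was above background on all 4 birth arrays (-4.53 and -3.69 in WT, -4.12 and -3.99 in KI) and on 0 arrays at 1 week, where it was at -4.88 (A), -6.41 (D), -5.79 (B) and -5.01 (C). It was at least 1.71-fold lower at 1 week over all arrays, a bound that was not tested. The fitted log2 difference, which uses 1-week signals below background, was -1.44 ± 0.33 over all arrays (limma, adjusted p = 0.0104). In WT and KI alone the fitted differences did not pass (adjusted p = 0.0833 and 0.165). Lama4, found in laminins of vessels and muscle, went from 3.84 to 3.92 at birth to 4.03 to 4.19 at 1 week and rose by 0.24 ± 0.07 over all arrays (adjusted p = 0.0338). That call was lost without array A, array C, or any 1 birth array (0.0528 to 0.0895). Lama3, Lama5 and Lamb3 did not pass with age.

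Counted by position alone, 14 of 31 subunits had all 4 arrays at 1 week above all 4 birth arrays, and 5 had them all below. Itgb6 and Lama1, each below background at 1 age, were among these. Over all 15173 genes, 16.5% lay wholly above and 19.9% wholly below.

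The promoters of the subunits that passed with age in both genotypes are shown because these genes passed with either record of the 1-week samples. RefSeq entries (GRCm38.p6) were matched by symbol for 23 of the 37 subunits, with 26 start sites; there was no entry for Itga7. Each line gives the 250 bases upstream of a start site, 5′ to 3′ on the gene's strand, and capitals mark an E-box (CANNTG, read on either strand), a GC box (GGGCGG), an AP-1 site (TGANTCA) or a TATA box (TATAAA).
Itgb6, first start, chr2:60722604-60722853, minus strand: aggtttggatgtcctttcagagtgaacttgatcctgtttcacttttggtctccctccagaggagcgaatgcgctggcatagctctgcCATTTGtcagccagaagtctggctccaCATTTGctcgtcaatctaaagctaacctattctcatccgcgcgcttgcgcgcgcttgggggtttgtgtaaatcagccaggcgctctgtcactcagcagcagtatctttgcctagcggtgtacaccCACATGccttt
Itgb6, second start, chr2:60673694-60673943, minus strand: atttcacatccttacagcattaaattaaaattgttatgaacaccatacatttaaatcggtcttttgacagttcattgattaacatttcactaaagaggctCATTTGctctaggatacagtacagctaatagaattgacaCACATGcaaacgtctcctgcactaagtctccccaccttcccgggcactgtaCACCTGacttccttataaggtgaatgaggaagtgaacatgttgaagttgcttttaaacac
Itga11, chr9:62677605-62677854, plus strand: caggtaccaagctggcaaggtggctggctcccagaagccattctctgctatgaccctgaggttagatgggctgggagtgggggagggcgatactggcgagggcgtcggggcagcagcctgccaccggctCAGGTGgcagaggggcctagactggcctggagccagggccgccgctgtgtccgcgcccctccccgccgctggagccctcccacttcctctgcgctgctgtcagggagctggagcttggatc
Itga4, chr2:79255176-79255425, plus strand: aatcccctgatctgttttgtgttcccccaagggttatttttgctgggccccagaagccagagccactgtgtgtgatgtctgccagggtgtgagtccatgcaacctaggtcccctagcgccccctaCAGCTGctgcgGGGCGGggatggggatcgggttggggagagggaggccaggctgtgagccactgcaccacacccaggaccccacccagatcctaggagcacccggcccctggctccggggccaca
Itga9, chr9:118711442-118711691, plus strand: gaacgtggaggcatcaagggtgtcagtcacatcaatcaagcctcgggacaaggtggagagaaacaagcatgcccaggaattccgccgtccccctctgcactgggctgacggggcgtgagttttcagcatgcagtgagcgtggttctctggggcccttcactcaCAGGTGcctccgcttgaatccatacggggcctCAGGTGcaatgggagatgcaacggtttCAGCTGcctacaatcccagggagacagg
Lama2, chr10:27616943-27617192, minus strand: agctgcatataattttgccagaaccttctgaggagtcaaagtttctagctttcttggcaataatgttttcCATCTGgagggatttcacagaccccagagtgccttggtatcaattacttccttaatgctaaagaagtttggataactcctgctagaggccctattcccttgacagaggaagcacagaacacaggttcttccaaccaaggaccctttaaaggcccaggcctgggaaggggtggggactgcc

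Each of these 6 windows held an E-box, with 3 in both Itgb6 windows and in Itga9 and 1 in Itga4, Itga11 and Lama2. E-boxes stood in 21 of the 26 subunit windows and in 66.2% of all 32851 RefSeq windows of that length, so the motif is common. Only Itga4 among the 6 held a GC box (9 of 26 subunit windows, 32.7% of all), and none held an AP-1 site (1 of 26; 6.75% of all) or a TATA box (0 of 26; 12.4% of all). The GC content was 52.0% and 38.0% at the Itgb6 starts, 64.0% for Itga4, 68.4% for Itga11, 58.4% for Itga9 and 47.2% for Lama2, beside a median of 52.4% over all windows. A match of letters is a description of the window and not a measured binding site.

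Between genotypes, no integrin or laminin subunit passed by limma. At birth 0 of 33 passed (0.0381% of all genes did), and at 1 week 0 of 33 by the value-table samples (0.0508% of all genes) and 0 of 32 by the scanner-file samples (0.00635%). The median KI minus WT difference of the subunits was 0.06 at birth and -0.07 at 1 week, beside 0.00 and 0.03 over all genes, with 20 and 14 of 33 above 0. At an unadjusted p under 0.05 there were 2 subunits at birth and 4 at 1 week, beside 4.71% and 7.06% of all genes. With the scanner-file samples there were 3 at 1 week (Itga6, Itga8 and Itgb6; 9.87% of all genes). In data simulated on these arrays for the birth comparison, the test recovered 43 of the 100 genes given a 2-fold change and 81 of the 100 given a 4-fold change, so differences below 2-fold were often not detectable.

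By the value table the subunits under an unadjusted 0.05 were Itga2b and Itga11 at birth, and Itga2b, Itga11, Itgax and Lamb3 at 1 week. Itga11 was higher in KI at both ages, by 0.39 ± 0.14 at birth (95% interval 0.07 to 0.72, adjusted p = 0.878) and by 0.56 ± 0.14 at 1 week (0.24 to 0.89, adjusted p = 0.478), with no overlap between genotypes at either age. The order at 1 week rests on the sample names: by the scanner files the difference was 0.02 ± 0.25. Itga2b, near background in WT at birth, was 0.84 ± 0.17 higher in KI at birth (95% interval 0.45 to 1.23, adjusted p = 0.405) and -0.43 ± 0.17 at 1 week (adjusted p = 0.686). Itgax, a dendritic cell and macrophage alpha chain, was at -3.40 (A), -4.24 (D), -4.81 (B) and -5.01 (C) at 1 week, which gave -1.09 ± 0.28 by the value table (adjusted p = 0.513) and -0.52 ± 0.47 by the scanner files. Lamb3 turned sign between the records at 1 week (-0.67 ± 0.23 and 0.19 ± 0.34).

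For the receptor and laminin of the muscle basement membrane the intervals were narrow. Itga7 differed between KI and WT by 0.27 at birth (95% interval -0.03 to 0.57) and -0.02 at 1 week (-0.32 to 0.28), and Lama2 by 0.06 at birth (-0.27 to 0.38). Itgb6 had a wide interval at 1 week, 0.29 (-0.83 to 1.41), and by the scanner-file samples it was lower in KI by a larger amount without passing (-1.05 ± 0.28, adjusted p = 0.428). The change with age differed between genotypes for 0 of 33 subunits (0.00635% of all genes), with 2 under an unadjusted 0.05, Itga2b and Itgb7 (4.85% of all genes). With the scanner-file samples 4 were, Itga2b, Itga7, Itgb6 and Lamb2 (6.29% of all genes), and again 0 passed.

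**Figure D3:**
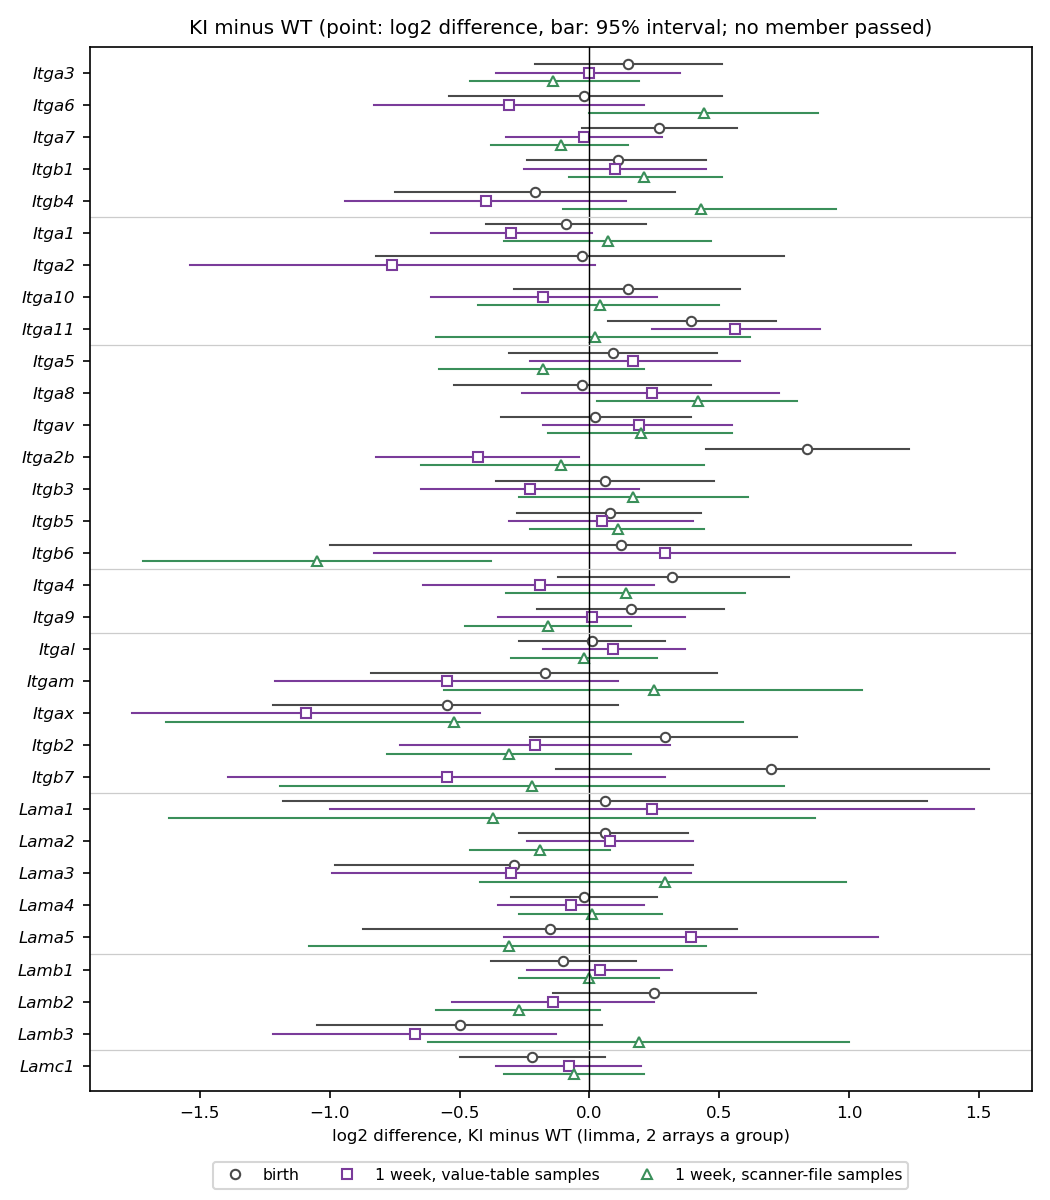
KI minus WT difference (log2, horizontal axis) of 32 of the 33 tested subunits at birth (circles), at 1 week by the value-table samples (squares) and at 1 week by the scanner-file samples (triangles), with bars for the 95% interval. All symbols are open because none passed, and Itga2b at birth, at 0.84, lies farthest to the right. Its WT level at birth was near background.

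The genes that work with the subunits were described from 3 lists. Of 34 tested integrin adhesion partners, which link integrins to actin or signal from them, 4 rose and 6 fell in WT and 0 rose and 2 fell in KI, where the shares over all genes were 10.0% higher and 8.96% lower in WT and 5.86% and 4.75% in KI. In the scanner-file record 0 rose and 3 fell in WT (6.98% and 5.67% of all genes) and 1 rose and 3 fell in KI (8.38% and 6.88%). Their median difference was 0.00 in WT. Ptk2b, a kinase related to focal adhesion kinase, fell by 2.16 ± 0.11 in WT (adjusted p = 0.000366) and by 1.88 ± 0.11 in KI (adjusted p = 0.000698), and Tns3, a tensin that binds beta chain tails, fell by 0.94 and 1.09. Lims2 (PINCH2, a partner of integrin-linked kinase) and the actin crosslinker Flna rose in WT by 1.24 and 0.70, and were at 0.70 and 0.42 in KI without passing. Vcl, vinculin, fell in WT by 0.52 ± 0.14 and was at -0.27 ± 0.14 in KI. By the scanner-file samples Ptk2b and Tns3 fell in both genotypes, Lims2 and Vcl passed in neither, and Flna rose in KI (0.63 ± 0.16, adjusted p = 0.0399) and did not pass in WT (0.49, adjusted p = 0.0875).

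Of 27 basement membrane and laminin-binding genes, 3 rose in WT and 2 in KI, and none fell by the value-table samples. That is near the share of all genes that rose (10.0% in WT and 5.86% in KI). In the scanner-file record 4 rose and 1 fell in WT (6.98% and 5.67% of all genes) and 2 rose and 2 fell in KI (8.38% and 6.88%). Over all 4 arrays of each age 5 rose and 5 fell, where 16.2% of all genes rose and 17.1% fell. Col15a1, a collagen at the outer face of muscle and vessel basement membranes, rose by 3.06 ± 0.32 in WT (adjusted p = 0.00196) and by 2.14 ± 0.32 in KI (adjusted p = 0.00798). Col4a4, a collagen IV chain, rose by 0.95 ± 0.18 and 1.53 ± 0.18, and Col4a3 rose in WT by 0.83. The main collagen IV chains, Col4a1 and Col4a2, were at 0.52 and 0.41 in WT without passing, and rose over all 4 arrays of each age (0.43 and 0.39; adjusted p = 0.0113 and 0.0141). By the scanner-file samples Col15a1 and Col4a4 passed in both genotypes and Col4a3 in neither.

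Of 14 tested other integrin ligands, 3 rose and 2 fell in WT, and 2 rose and 2 fell in KI. Over all genes 10.0% rose and 8.96% fell in WT, and 5.86% rose and 4.75% fell in KI. By the scanner-file samples 2 rose and 1 fell in WT and 3 rose and 2 fell in KI. The shares over all genes there were 6.98% and 5.67% in WT and 8.38% and 6.88% in KI. Vtn, vitronectin, a ligand of the alphaV integrins, rose by 2.82 ± 0.22 in WT (adjusted p = 0.000802) and 2.12 ± 0.22 in KI (adjusted p = 0.00255), and Fbln5, an elastic fibre protein that binds integrins, by 1.32 and 1.48. Vcam1, a ligand of alpha4 integrins, fell by 1.15 ± 0.13 (adjusted p = 0.00261) and 1.09 ± 0.13 (adjusted p = 0.00399) while Itga4 rose. Ccn2, a matricellular protein, fell by 1.41 and 1.12, and by the scanner-file samples did not pass in WT (-1.03, adjusted p = 0.0763). No gene of the 3 lists passed between genotypes by the value-table samples.

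**Figure D4:**
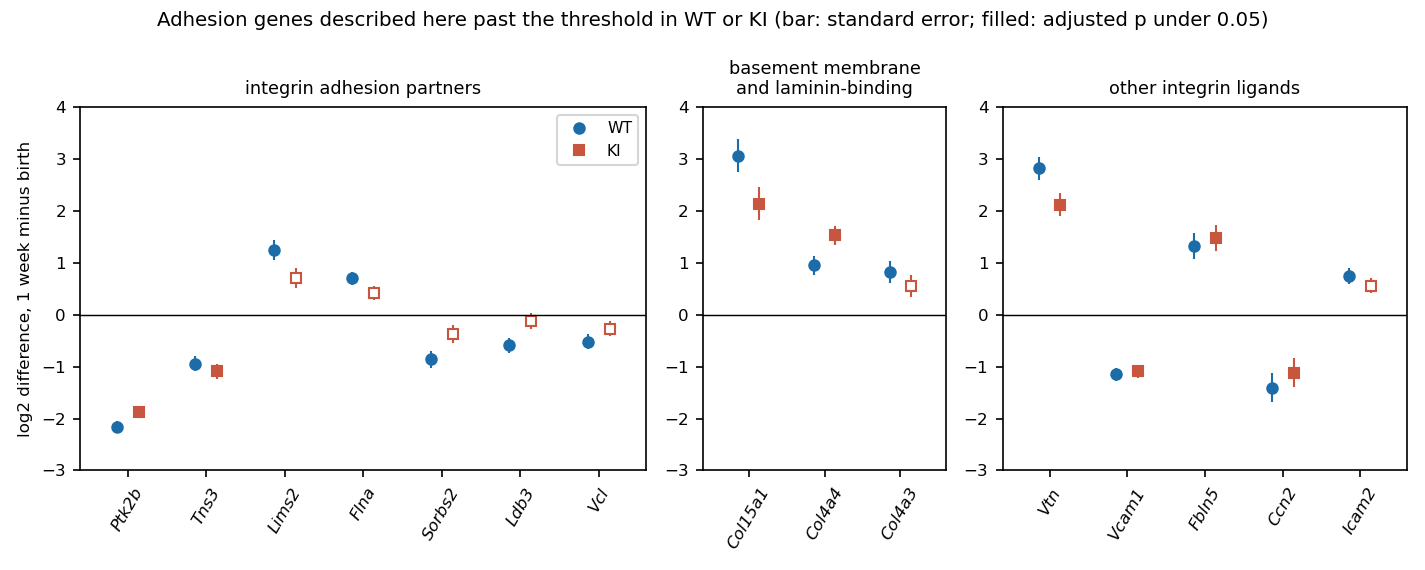
Difference between 1 week and birth (log2, vertical axis) of the partner genes and ligands described here that passed in WT or KI, in 3 panels by list; circles are WT, squares KI, bars the standard error, and filled symbols an adjusted p under 0.05. Col15a1 and Vtn lie highest, at 3.06 and 2.82 in WT, and Ptk2b lowest, at -2.16.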

How the data were processed

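The deposited scanner files hold, per the file headers, the processed intensity of each spot, corrected for background within the array by Feature Extraction 11.0.1.1 (the submitters' processing notes give 9.1) and not normalized between arrays. The deposited raw median and background intensity of each spot served for an alternative, and the authors' software flags, deposited as other columns coded 0 and 1, for filters. The deposited value table holds the same intensity per probe; each of its columns equalled 1 scanner file over 56305 probes (relative tolerance 0.0001), which linked the 2 records.

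Spots of a probe were averaged, control spots and outlier flags left out, and log2 intensity minus the array's 75th percentile taken over 56590 probes. Array annotation gave the symbols. One model of 4 group means over 8 arrays was fitted with limma 3.58.1 (R 4.3.3, lmFit and eBayes) and p was adjusted by Benjamini-Hochberg over all genes tested; the comparison of 4 arrays with 4 was a separate fit. Standard errors and 95% intervals come from those fits. A bound ("at least") sets the bright group's mean against the higher of the lowest signal well above background and the dim probe's own, per array. The number of arrays limits the precision. Beside the subunits, the text names genes of the 3 partner lists past the threshold in WT or KI (some results are not reported here, though counts include them), and other genes of these lists chosen after their values were seen. The members, lists and tests were chosen with earlier results of these data known. Alternatives were the scanner-file samples, normexp, quantile normalization, the value table's values, filters on dim probes, the mean over probes, a replicate block, fits of the compared arrays only and leaving out each array. Scripts were tested on simulated data.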

Additional observations from a re-analysis of the deposited data

How the results depend on the processing

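Of 303 values of the 17 called age differences under the alternatives, 245 kept direction and call, 58 kept direction only and 0 reversed. The genotype counts stayed at 0 in all 50 alternatives, each leave-one-out fit included. The WT age count of 10 became 6 to 17 and the KI count of 7 became 3 to 7 when single arrays were left out; both were 18 over all 4 arrays of each age, which doubles the arrays a group, and the KI count was 4 with the mean over all probes of a gene. The count of 18 became 13 to 18 without single arrays, 17 after normexp, 18 after quantile normalization and 16 with the mean over probes. Why single arrays moved the counts was not tested.

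Replicate numbers showed no strong pairing by the value-table samples. Between WT and KI of the same age, deviations of same-numbered arrays correlated at 0.286 at birth and 0.165 at 1 week. Between groups of different age they correlated at -0.137 to 0.153. With the replicate number as a block, 11 subunits passed with age in WT, 5 in KI and 0 between genotypes; Itga4 and Lamc1 did not pass in KI (adjusted p = 0.0606 and 0.0528). Array signal sets a floor: subunits near background (Itga2, Itga2b, Itgax, Itgb7, Lama1) have only loosely measured differences, and Itgb6 at birth has only a bound.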
